A study of Mus musculus with 76 samples.

Results

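The comparison described here sets CT26 tumors against 4T1 tumors under one and the same treatment, an injection of CAT-ABP plus alum into the tumor. Its members are, by their labels, every wild-type CT26 and every wild-type 4T1 tumor that received CAT-ABP plus alum, which gave 6 and 6 tumors, 12 of the 38 tumors in the series. The study asked what tumor-localized catalase does to tumors in mice, with catalase either injected or expressed by the tumor cells, and measured polyadenylated RNA in bulk tumors by a 3′ counting method. Because both groups received catalase, this contrast measures the difference between the tumor models under that treatment and not an effect of catalase.

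CT26 is a colon carcinoma line and 4T1 a mammary carcinoma line, both derived from and transplantable into Balb/c mice. All 12 tumors grew under the skin of the flank of young adult female Balb/c mice. Each mouse received 1000000 CT26 cells or 500000 4T1 cells on day 0. CAT-ABP is catalase, the enzyme that splits hydrogen peroxide into water and oxygen, joined to a peptide that binds alum particles and so holds the enzyme in the tumor. The dose was 20 µg CAT-ABP with 100 µg alum. By the sample labels it was injected on day 6 and the tumors were taken on day 8, while the study's text gives days 7 and 9. The 10 tumors given 100 µg alum alone, 5 CT26 and 5 4T1, carried the same inocula and days and served for a second, separate contrast. The models have limits that bear on every value below: each is a single cell line, a flank site is the natural site of neither cancer, the number of cells injected differed between the lines, and a bulk tumor also holds host cells. The line, its tissue of origin and the inoculum therefore cannot be told apart. In such bulk samples, fewer cells of a type and less RNA per cell cannot be told apart either.

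Each tumor was sequenced as 2 technical libraries, one in pool 3 and one in pool 2 for all 12 tumors. They were summed, and the tumor is the replicate throughout. Total counts per tumor ran from 4135199 to 9077549 in CT26 and from 837403 to 8543636 in 4T1, and the groups overlapped (difference in mean log2 total 0.52, p = 0.4004, two-sided exact permutation test). A single 4T1 tumor, replicate 4, was far below the others in depth (without it the difference in mean log2 total was 0.060), and its 2 libraries correlated less well with each other (Pearson r = 0.796 across genes) than those of the other 11 tumors. Mitochondrial genes took 3.82% ± 0.43 (SD, n = 6) of counts in CT26 and 4.41% ± 0.83 (SD, n = 6) in 4T1 (p = 0.128, two-sided exact permutation test). The difference of -0.59 percentage points was -0.26 without 4T1 replicate 4, the shallow tumor (p = 0.262), and passed the test without CT26 replicate 3 (-0.73, p = 0.0433) and with technical replicate 2 alone (-0.61, p = 0.0411), all by exact permutation tests. Ribosomal protein genes, looked at after the values were seen and so not tested, took 11.3% ± 1.23 (SD, n = 6) in CT26 and 7.8% ± 0.48 (SD, n = 6) in 4T1, with no overlap between the groups, and near-identical copies make the counts of these genes uncertain.

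Epithelial cells are held together by E-cadherin, tight junctions and desmosomes and are stiffened by paired keratin filaments, while mesenchymal cells carry vimentin and N-cadherin and express transcription factors of the ZEB family that repress epithelial genes. Carcinomas can keep the epithelial program, lose it or hold parts of both. Interferon-gamma from T cells and NK cells induces chemokines, guanylate-binding proteins and the machinery that presents peptides on MHC molecules, and tumors differ in how many such cells they hold.

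The labels were first set against markers of the tissues of origin. Levels are given as CPM, counts scaled to a library of 1000000 with TMM factors that correct for composition, and a gene was tested where edgeR's filter found enough counts for the group size. Of 22 genes of the intestinal lineage only 3 had enough counts. Cdx2, the transcription factor that specifies intestine, had 2 counts over all 6 CT26 tumors and 0 in 4T1, and Vil1, which encodes the brush border protein villin, had 1 and 3 counts. The CT26 tumors thus held next to no RNA of these defining intestinal genes. Gpa33, an intestinal surface antigen, lay at 0.197 to 0.522 CPM (median 0.278) in CT26 and 15.2 to 31 CPM (median 27.1) in 4T1, so this gene of the intestinal list was the higher one in the mammary line (log2 fold change -6.28 ± 0.30 SE, adjusted p = 5.07e-12). Of 18 mammary genes 9 were tested, of which 3 were higher in CT26 (Foxa1, Esr1 and Csn3), 5 were higher in 4T1 (Gata3, Areg, Trps1, Erbb3 and Erbb2) and 1 did not pass the test. Gata3, a transcription factor of the luminal mammary epithelium, lay at 1.62 to 5.03 CPM (median 3.31) in CT26 and 62.5 to 73.7 CPM (median 65.97) in 4T1. Gata3 did not overlap between the groups (log2 fold change -4.21 ± 0.20 SE, adjusted p = 4.32e-12). Areg, an EGF receptor ligand of the mammary duct, was also higher in 4T1 (log2 fold change -3.0), whereas Esr1 and Foxa1, the estrogen receptor and its pioneer factor, were higher in CT26 (log2 fold changes 1.1 and 3.43). Milk protein genes Csn1s1, Csn2 and Lalba had 0 counts in all 12 tumors. Erbb2 was called in 21 of 23 alternatives (adjusted p 0.00101 to 0.0637) and lost the call with technical replicate 1 alone or without 4T1 replicate 5.

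Many genes differed between the models. Of 13016 genes tested, 5912 (45.4%) differed at an adjusted p of 0.05 or less (edgeR quasi-likelihood test, Benjamini-Hochberg), 2827 (21.7%) higher in CT26 and 3085 (23.7%) higher in 4T1. Log2 fold changes are written as CT26 minus 4T1, so that a positive value is higher in CT26. A log2 fold change of at least 1 in either direction was reached by 2574 of these genes (19.8% of those tested), 1213 toward CT26 and 1361 toward 4T1. The 6 CT26 and 6 4T1 values did not overlap for 2928 genes (22.5%). Over all genes tested the median log2 fold change was -0.02 and the median of its absolute value 0.46, and the lists below are set against these shares and this median. The tumors of a line resembled each other more than those of the other line, with Pearson r of log2 CPM across genes of 0.941 to 0.973 within CT26, 0.882 to 0.983 within 4T1 and 0.775 to 0.858 between the lines.

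Most epithelial genes were higher in 4T1. Of 8 keratins tested, 6 were higher in 4T1 and 2 (Krt20 and Krt80) in CT26, with a median log2 fold change of -4.19. The pair that builds simple epithelial filaments was scarce in CT26. Krt8 lay at 4.199 to 8.63 CPM (median 5.12) in CT26 and 587 to 785 CPM (median 679) in 4T1, and the groups were separated by more than their spread (log2 fold change -6.93 ± 0.22 SE, adjusted p = 6.38e-14). Its partner Krt18 (chr15:102028180-102032027, build GRCm38, plus strand) lay at 8.61 to 12.3 CPM (median 9.75) in CT26 and 812 to 995 CPM (median 868) in 4T1. Krt18 did not overlap between the groups (log2 fold change -6.46 ± 0.17 SE, adjusted p = 8.63e-15). Krt14, the keratin of basal cells, was near 0 in CT26 at 0 to 0.691 CPM (median 0.338) in CT26 and 41.5 to 77.5 CPM (median 56.5) in 4T1. Krt20, typical of differentiated intestinal epithelium, went the other way, at 50.8 to 140.2 CPM (median 62.3) in CT26 and 0 to 1.51 CPM (median 1.22) in 4T1. Krt20 did not overlap between the groups (log2 fold change 6.05 ± 0.33 SE, adjusted p = 5.65e-11). Thus CT26 tumors carried little RNA of the simple keratin pair but held Krt20.

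Junction genes were also mostly higher in 4T1. Of 19 tested, 1 was higher in CT26 (Cldn6), 16 were higher in 4T1 and 2 did not pass the test, and the median was -4.29. Epcam, an adhesion molecule of carcinoma cells, lay at 0.935 to 3.13 CPM (median 1.81) in CT26 and 252 to 424 CPM (median 333) in 4T1. Epcam did not overlap between the groups (log2 fold change -7.53 ± 0.27 SE, adjusted p = 2.96e-13). Cdh1, which encodes E-cadherin, lay at 1.17 to 6.26 CPM (median 3.82) in CT26 and 86.6 to 132 CPM (median 118) in 4T1 (log2 fold change -4.8 ± 0.23 SE, adjusted p = 7.29e-12), and the desmosomal genes Dsp and Perp had log2 fold changes of -5.73 and -7.29. Cldn7, a tight junction claudin, had 0 counts in CT26 and 41 in 4T1, at least 16.8-fold higher in 4T1 against a floor of 3 counts over the CT26 group. Cldn6, a claudin best known from embryonic epithelium, was the exception, at 4.14 to 11.6 CPM (median 5.803) in CT26 and 0 to 0.758 CPM (median 0.0986) in 4T1. The regulators gave a median of -2.57, with 6 of 7 higher in 4T1 and 0 higher in CT26. Esrp1, a splicing factor of epithelial cells, had 3 counts over the CT26 tumors against 651 in 4T1, a ratio of 266 with a 95% counting interval of 90.8 to 1295. Grhl2, a transcription factor that maintains epithelial junctions, differed by less, at 13.2 to 31.4 CPM (median 21.4) in CT26 and 31.7 to 56.8 CPM (median 40.6) in 4T1. Grhl2 did not overlap between the groups (log2 fold change -0.93 ± 0.20 SE, adjusted p = 9.93e-04).

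The epithelial surface proteases and their inhibitors were uniform in direction. All 9 tested members were higher in 4T1, with a median of -5.47. St14, which encodes matriptase, lay at 0.234 to 1.56 CPM (median 0.875) in CT26 and 25.04 to 36.2 CPM (median 28.7) in 4T1. Its inhibitors Spint1 and Spint2 had log2 fold changes of -5.4 and -4.73, so the protease and both inhibitors were higher in the same tumors. Wfdc2, a small secreted protease inhibitor, lay at 0.808 to 4.69 CPM (median 2.35) in CT26 and 419 to 544 CPM (median 454) in 4T1. Wfdc2 did not overlap between the groups (log2 fold change -7.46 ± 0.28 SE, adjusted p = 4.14e-13).

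**Figure D1:**
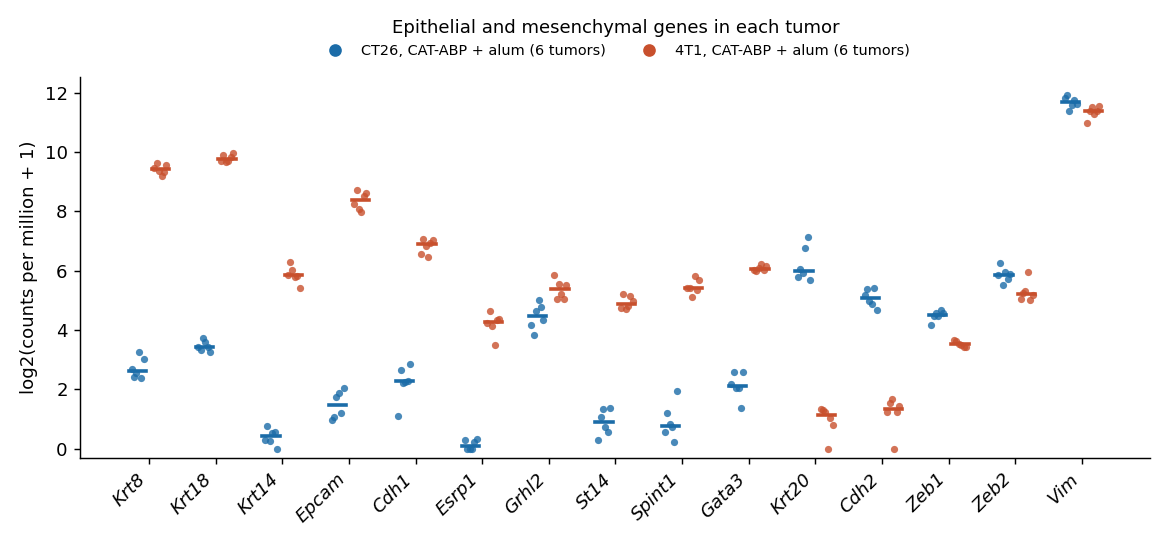
Levels of epithelial and mesenchymal genes on a log2(CPM + 1) scale, 1 point per tumor, with a bar at the group median, in 6 CT26 (blue) and 6 4T1 (orange) tumors given CAT-ABP plus alum. The 4T1 points lie above all CT26 points from Krt8 to Gata3, the order turns for Krt20, Cdh2 and Zeb1, and the groups overlap for Zeb2 and Vim.

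The promoters of these lists were searched for CAGGTG, an E-box that ZEB and SNAI repressors can bind, and for its reverse complement CACCTG, in the 250 bases before each start in the RefSeq promoter table (build GRCm38.p6). Of all 27025 genes in that table, 19.4% had the motif in at least 1 of their windows. By symbol 7 of 14 keratins, 17 of 29 junction genes, 6 of 15 regulators and 11 of 16 proteases and inhibitors matched the table. Among those that matched, the motif stood in 5 of 7 keratins, 9 of 17 junction genes, 3 of 6 regulators and 5 of 11 proteases and inhibitors. Among the matched members called higher in 4T1, it stood in 3 of 4 keratins, 3 of 8 junction genes, 0 of 1 regulator and 4 of 5 proteases and inhibitors. A match is a description of sequence and no evidence of binding. The windows of Epcam (chr17:87635729-87635978, plus strand) and Spint2 (chr7:29281978-29282227, minus strand) are shown since both genes were higher in 4T1 and hold the motif more than once, with each match in capitals.
Epcam: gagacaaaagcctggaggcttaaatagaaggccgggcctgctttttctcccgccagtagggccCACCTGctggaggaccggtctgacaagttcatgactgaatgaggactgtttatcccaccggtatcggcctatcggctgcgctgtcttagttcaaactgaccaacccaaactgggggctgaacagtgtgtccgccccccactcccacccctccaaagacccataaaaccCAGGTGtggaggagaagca
Spint2: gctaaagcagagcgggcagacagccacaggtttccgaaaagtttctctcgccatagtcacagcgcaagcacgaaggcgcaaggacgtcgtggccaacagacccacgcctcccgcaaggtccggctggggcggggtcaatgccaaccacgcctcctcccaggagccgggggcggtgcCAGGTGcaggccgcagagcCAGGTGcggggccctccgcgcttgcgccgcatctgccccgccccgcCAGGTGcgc

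Mesenchymal genes did not move as a block. Of 15 tested, 9 were higher in CT26, 3 were higher in 4T1 (Fn1, Cdh11 and Tcf4) and 3 did not pass the test, with a median of 0.63. Cdh2, which encodes N-cadherin, showed the widest gap toward CT26, at 24.5 to 41.99 CPM (median 32.7) in CT26 and 0 to 2.17 CPM (median 1.52) in 4T1. Cdh2 did not overlap between the groups (log2 fold change 4.37 ± 0.23 SE, adjusted p = 2.76e-11). Zeb1 lay at 17.1 to 24.7 CPM (median 21.98) in CT26 and 9.64 to 11.7 CPM (median 10.5) in 4T1 without overlap (log2 fold change 1.02 ± 0.15 SE, adjusted p = 1.48e-05), and Zeb2 had a log2 fold change of 0.63 with overlapping groups. Prrx1 and S100a4 were higher in CT26 as well (log2 fold changes 1.79 and 1.81). Vim did not pass the test: vimentin RNA was abundant in both models, at 2689 to 3908 CPM (median 3274) in CT26 and 2031 to 2973 CPM (median 2670.3) in 4T1 (adjusted p = 0.0875), although it was called in 5 of 23 alternatives (adjusted p 0.00768 to 0.272), 1 of them without CT26 replicate 3 (adjusted p = 0.0443). Fn1, encoding fibronectin, and Cdh11 were higher in 4T1 (log2 fold changes -1.43 and -2.08). Axl, counted above, lost the call in 2 of 23 alternatives.

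Matrix and fibroblast genes were mostly higher in 4T1. Of 19 fibroblast and collagen genes, 1 was higher in CT26 (Dcn), 15 were higher in 4T1 and 3 did not pass the test, with a median of -0.86. Their summed level was 2246 to 3146 CPM (median 2546) in CT26 and 3879 to 5845 CPM (median 4494) in 4T1, and the groups did not overlap. The gene of highest CPM was Col1a2 in CT26 (742 CPM on average) and Col3a1 in 4T1 (1378 CPM), and none of the markers was at 0. Postn, a matrix protein of activated fibroblasts, lay at 21.2 to 32.1 CPM (median 26.9) in CT26 and 194 to 373 CPM (median 312) in 4T1. Postn did not overlap between the groups (log2 fold change -3.49 ± 0.18 SE, adjusted p = 1.22e-11). Acta2, the smooth muscle actin of myofibroblasts, and Col1a1 had log2 fold changes of -2.51 and -1.69. Dcn, the proteoglycan decorin, was the one member higher in CT26, at 328 to 495 CPM (median 388) in CT26 and 157 to 314 CPM (median 188) in 4T1. Whether these RNAs come from host fibroblasts or from tumor cells was not tested. Of 15 matrix proteases and inhibitors, 3 were higher in CT26 (Timp1, Timp3 and Plaur), 8 were higher in 4T1 and 4 did not pass the test (median -0.68). Mmp9, a gelatinase, lay at 11.9 to 26.1 CPM (median 14.8) in CT26 and 61.4 to 162 CPM (median 111) in 4T1. Timp1, an inhibitor of such enzymes, was higher in CT26, at 581 to 984 CPM (median 817) in CT26 and 184 to 346 CPM (median 294) in 4T1. Timp1 did not overlap between the groups (log2 fold change 1.48 ± 0.18 SE, adjusted p = 2.67e-06). Mmp13 was higher in 4T1 with overlapping groups (log2 fold change -1.35 ± 0.40 SE, adjusted p = 0.0136) and was called in 21 of 23 alternatives (adjusted p 3.00e-04 to 0.0661), not without 4T1 replicate 2 (adjusted p = 0.0542) nor without the filter (adjusted p = 0.0661). Dpt, Mmp11 and Thy1, counted above, lost the call in 9 of 23, 1 of 23 and 3 of 23 alternatives, in this order.

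The largest single differences lay partly outside the lists. Among called genes with a mean of at least 20 CPM in the higher group and no overlap, the 10 with the largest log2 fold change toward 4T1 were Hhip, Ibsp, Urah, Epcam, Fgfbp1, Wfdc2, Cxadr, Perp, Fermt1 and Fam167a. Hhip, a decoy receptor for hedgehog ligands, had 1 count over the CT26 tumors and 1450 in 4T1, a ratio of 1780.2 with a 95% counting interval of 319 to 70362. Ibsp, bone sialoprotein, had 2 counts against 979 and lay at 15.4 to 169 CPM in 4T1 with a median of 25.6. The value of 169 CPM was that of 4T1 replicate 4, the shallow tumor, and the other 4T1 tumors lay at 15.4 to 40.9 CPM. Toward CT26 the 10 were Gm5624, 3110039M20Rik, 3830403N18Rik, 1700012B09Rik, Glod5, Rhox5, Ndst4, Krt20, Cdh26 and Slurp1. Rhox5, a homeobox gene of the X chromosome that is normally active in the reproductive tract and placenta, lay at 323 to 624 CPM (median 449) in CT26 and 3.22 to 11.6 CPM (median 4.51) in 4T1. Its log2 fold change was 6.56 ± 0.25 SE (adjusted p = 5.18e-13). The call and the lack of overlap of all these genes follow from the rule that picked them. Slurp1, a small secreted protein of the Ly6 family, lay at 76.6 to 155 CPM (median 86.5) in CT26 and 1.15 to 7.75 CPM (median 1.404) in 4T1. These intervals cover counting error only.

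Genes of p53 and its targets leaned toward CT26. Of 21 tested, 12 were higher in CT26, 4 were higher in 4T1 (Ei24, Tnfrsf10b, Rrm2b and Pmaip1) and 5 did not pass the test, with a median of 0.72. Trp53 itself lay at 30.98 to 43.9 CPM (median 39.96) in CT26 and 10.4 to 19.4 CPM (median 14.9) in 4T1. Trp53 did not overlap between the groups (log2 fold change 1.44 ± 0.15 SE, adjusted p = 2.72e-07). Cdkn1a, the cell cycle inhibitor p21, lay at 44.1 to 65.9 CPM (median 48.6) in CT26 and 10.6 to 18.3 CPM (median 15.7) in 4T1 (log2 fold change 1.73 ± 0.16 SE, adjusted p = 4.72e-08), and Ephx1, an epoxide hydrolase, had a log2 fold change of 4.07. Mdm2 and Ccng1 were higher in CT26 by 0.65 and 0.93 on the log2 scale, and Ei24 and Tnfrsf10b were higher in 4T1 (log2 fold changes -1.48 and -0.71). With technical replicate 2 alone Mdm2 and Tnfrsf10b were not called (adjusted p = 0.0766 and 0.0609); Mdm2 was called in 22 of 23 alternatives (adjusted p 2.12e-05 to 0.0766) and Tnfrsf10b in 22 of 23 alternatives (adjusted p 9.68e-04 to 0.0609). At the locus of the inhibitors of cyclin-dependent kinases 4 and 6, Cdkn2a (chr4:89274471-89294653) had 0 counts in all 12 tumors and Cdkn2b had 8 counts in CT26 and 22 in 4T1. Mtap, the neighboring gene of methionine salvage, lay at 111 to 149 CPM (median 131) in CT26 and 359.7 to 459.8 CPM (median 410.2) in 4T1. Mtap did not overlap between the groups (log2 fold change -1.64 ± 0.14 SE, adjusted p = 1.15e-08). Pmaip1 was called in 9 of 21 alternatives (adjusted p 0.0175 to 0.515) and lost the call with limma voom, without the filter, with technical replicate 1 alone, with 1 model over all 7 groups, with the replicate number as a block, without CT26 replicate 2, 3 or 6 or without 4T1 replicate 1, 3, 5 or 6. Fas, counted above, lost the call in 1 of 23 alternatives.

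RAS-MAPK feedback genes were split. Of 18 tested, 3 were higher in CT26 (Spry4, Egr1 and Fosl1), 6 were higher in 4T1 and 9 did not pass the test (median -0.24). Dusp6, a phosphatase that turns off ERK, lay at 73.5 to 103 CPM (median 93.96) in CT26 and 139 to 179 CPM (median 167) in 4T1. Dusp6 did not overlap between the groups (log2 fold change -0.88 ± 0.13 SE, adjusted p = 2.77e-05). Spry1 was higher in 4T1 and Spry4, a second Sprouty inhibitor, in CT26 (log2 fold changes -3.91 and 2.42). Among genes of the stress response, Asns, asparagine synthetase, lay at 198 to 398 CPM (median 281) in CT26 and 42.7 to 69.4 CPM (median 54.1) in 4T1 (log2 fold change 2.39 ± 0.19 SE, adjusted p = 5.12e-09), and Atf5, a transcription factor, was higher in CT26 too (log2 fold change 2.56). The endoplasmic reticulum genes Hspa5 and Xbp1 lay on the 4T1 side of the same list (log2 fold changes -0.81 and -0.76), of whose 17 genes 8 were higher in CT26, 3 were higher in 4T1 (Hspa5, Xbp1 and Atf3) and 6 did not pass the test (median 0.36). Most cell cycle genes did not pass the test: of 24, 4 were higher in CT26 (Ccne1, Foxm1, Pcna and Aurkb), 3 were higher in 4T1 (Top2a, Mki67 and Ccnb2) and 17 did not pass the test (median 0.25). Mki67, a marker of cycling cells, lay at 114 to 162 CPM (median 120.3) in CT26 and 149 to 427 CPM (median 211) in 4T1 (log2 fold change -0.88 ± 0.21 SE, adjusted p = 0.00193), and Ccne1 and Foxm1 were higher in CT26 (log2 fold changes 1.24 and 1.2). Ccnb1 lay at 107 to 216 CPM (median 168) in CT26 and 84.8 to 156 CPM (median 119) in 4T1 (adjusted p = 0.0623) and was called in 10 of 23 alternatives (adjusted p 0.00526 to 0.251), among them without 4T1 replicate 1 or 3 or CT26 replicate 2 (adjusted p = 0.0177, 0.01898 and 0.00526). Of 8 clock genes, 2 were higher in CT26 (Arntl and Clock), 2 were higher in 4T1 (Cry1 and Nr1d2) and 4 did not pass the test (median -0.25, which turned to 0.189 with technical replicate 2 alone), with Arntl, the core activator Bmal1, at 18.3 to 30.7 CPM (median 21.6) in CT26 and 2.58 to 10.1 CPM (median 6.78) in 4T1. Egr1 was called in 21 of 23 alternatives (adjusted p 0.00798 to 0.122) and lost the call with technical replicate 1 alone or without CT26 replicate 2. Fosl1 was called in 13 of 22 alternatives (adjusted p 0.00982 to 0.125) and lost the call with limma voom, without the filter, with technical replicate 1 alone, without CT26 replicate 1 or 2 or without 4T1 replicate 1, 2, 3 or 6. Aurkb was called in 22 of 23 alternatives (adjusted p 0.002897 to 0.115) and lost the call with technical replicate 2 alone. Ccnb2 was called in 14 of 23 alternatives (adjusted p 0.00748 to 0.7303) and lost the call with upper quartile scaling, without the filter, with technical replicate 2 alone, with 1 model over all 7 groups, without CT26 replicate 2 or without 4T1 replicate 2, 3, 5 or 6. Nr1d2 was called in only 10 of 23 alternatives (adjusted p 0.0134 to 0.261), which were those with DESeq2, with a mean of at least 20 counts, with technical replicate 2 alone, without libraries of low depth, with 1 model over all 7 groups, with the replicate number as a block, without CT26 replicate 1 or 4 and without 4T1 replicate 4 or 5. Ddit3, counted above, lost the call in 1 of 23 alternatives.

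Genes that remove peroxide, the substrate of the injected enzyme, or superoxide showed no common direction. Of 21 tested, 5 were higher in CT26 (Gpx8, Srxn1, Prdx3, Txn2 and Txn1), 6 were higher in 4T1 and 10 did not pass the test (median -0.08, which changed sign in 3 of 23 alternatives, furthest to 0.046 with limma voom). The mouse gene Cat lay at 18.4 to 25.7 CPM (median 23.7) in CT26 and 18.1 to 44.5 CPM (median 32.6) in 4T1, with overlapping groups (log2 fold change -0.55 ± 0.17 SE, adjusted p = 0.0131), and the call was lost when 4T1 replicate 2, 5 or 6 was left out (adjusted p = 0.05004, 0.0638 and 0.0743) or when technical replicate 2 was used alone (adjusted p = 0.0503), within a range of 9.35e-04 to 0.0743 over 23 alternatives. Prdx1, Gpx1 and Sod2 did not pass the test (adjusted p = 0.618, 0.302 and 0.9804). Sesn3, a stress-induced sestrin, was higher in 4T1 at 2.33 to 6.41 CPM (median 4.18) in CT26 and 30.96 to 63.1 CPM (median 48.6) in 4T1 (log2 fold change -3.42 ± 0.23 SE, adjusted p = 7.13e-10), and Gpx8 and Srxn1 were higher in CT26 (log2 fold changes 1.2 and 0.81). Of 19 NRF2 genes, 7 were higher in CT26, 1 was higher in 4T1 (Tkt) and 11 did not pass the test (median 0.23). Gstm1, a glutathione transferase with close paralogs and so uncertain, lay at 24.3 to 64.8 CPM (median 49.1) in CT26 and 3.601 to 16.8 CPM (median 5.96) in 4T1, and Hmox1, Nqo1 and Slc7a11 did not pass the test. Among 8 oxidase genes, 3 were higher in CT26 (Rac2, Cybb and Cyba), 0 were higher in 4T1 and 5 did not pass the test (median 0.26), and Cyba was called in 22 of 23 alternatives (adjusted p 2.49e-04 to 0.0507), not with technical replicate 2 alone. Cybb, the catalytic subunit of the phagocyte oxidase, lay at 61.9 to 223 CPM (median 113) in CT26 and 43.9 to 78.3 CPM (median 59.3) in 4T1. Prdx3 was called in 22 of 23 alternatives (adjusted p 1.26e-04 to 0.0761) and lost the call with technical replicate 2 alone. Txn2 was called in 22 of 23 alternatives (adjusted p 2.87e-04 to 0.567) and lost the call with technical replicate 2 alone. Txn1 was called in 20 of 23 alternatives (adjusted p 5.56e-04 to 0.0547) and lost the call with technical replicate 2 alone or without CT26 replicate 3 or 4. Gclc, Gpx3, Nfe2l2, Pgd and Prdx2, counted above, lost the call in 2 of 23, 1 of 23, 1 of 23, 1 of 23 and 12 of 23 alternatives, in this order.

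Hypoxia genes did not share a direction either. Of 25 tested, 4 were higher in CT26 (Angptl4, Higd1a, Ankrd37 and Vegfa), 8 were higher in 4T1 and 13 did not pass the test (median -0.15). Car9, the carbonic anhydrase that marks hypoxic tumor cells, lay at 6.42 to 14.2 CPM (median 9.53) in CT26 and 24.8 to 56.7 CPM (median 41.04) in 4T1 without overlap (log2 fold change -2.11 ± 0.21 SE, adjusted p = 1.79e-07), and Egln3, a prolyl hydroxylase, had a log2 fold change of -3.85. Vegfa was higher in CT26 with overlapping groups (log2 fold change 0.60 ± 0.21 SE, adjusted p = 0.0253), and Higd1a and Angptl4 were higher in CT26 too (log2 fold changes 1.01 and 0.99). The Vegfa call was lost without 4T1 replicate 6 or without CT26 replicate 2 or 4, with adjusted p of 0.0614, 0.08499 and 0.0511, and with technical replicate 1 or 2 alone (adjusted p = 0.0699 and 0.0664), within a range of 0.00651 to 0.08499 over 23 alternatives. Of 21 glycolysis genes, 10 were higher in CT26, 3 were higher in 4T1 (Aldoc, Pfkl and Pfkp) and 8 did not pass the test (median 0.16). Pgk1, phosphoglycerate kinase, lay at 823 to 1343 CPM (median 1063) in CT26 and 535 to 748 CPM (median 642) in 4T1 (log2 fold change 0.75 ± 0.16 SE, adjusted p = 8.93e-04), whereas Aldoc, an aldolase, was higher in 4T1 at 1.13 to 7.74 CPM (median 3.13) in CT26 and 33.6 to 49.95 CPM (median 41.8) in 4T1. Aldoc did not overlap between the groups (log2 fold change -3.56 ± 0.28 SE, adjusted p = 6.72e-09). Aldoa and Slc2a1 did not pass the test (adjusted p = 0.0684 and 0.0614). Aldoa was called in 5 of 23 alternatives (adjusted p 0.0155 to 0.176), among them without CT26 replicate 2 or 4 (adjusted p = 0.0473 and 0.0266). Slc2a1 was called in 6 of 23 alternatives (adjusted p 0.006801 to 0.179), among them without 4T1 replicate 3 or CT26 replicate 2 or 4 (adjusted p = 0.0452, 0.0176 and 0.0381). Gapdh and Ldha have many near-identical copies and are uncertain. Ankrd37 was called in 21 of 23 alternatives (adjusted p 0.008403 to 0.0829) and lost the call with technical replicate 2 alone or without CT26 replicate 4. Pfkl was called in 22 of 23 alternatives (adjusted p 1.96e-05 to 0.0672) and lost the call with technical replicate 2 alone. Pfkp was called in only 5 of 23 alternatives (adjusted p 0.0171 to 0.147), which were those with DESeq2, with limma voom, with the replicate number as a block and without CT26 replicate 2 or 6. Adm, Pfkm and Slc16a3, counted above, lost the call in 3 of 20, 1 of 23 and 5 of 22 alternatives, in this order.

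Lymphocyte genes were higher in CT26. Of 20 T and NK cell markers tested among 24, 18 were higher in CT26, none was higher in 4T1 and 2 did not pass the test, and the median was 1.91. The summed level of all 24 was 381 to 1562 CPM (median 914) in CT26 and 90.98 to 207 CPM (median 114) in 4T1, so the groups did not overlap. The gene of highest CPM was Gzma in CT26 (285 CPM on average) and Gzmb in 4T1 (15.5 CPM), and no marker was at 0 in either group. Gzmb, the cytotoxic protease granzyme B, lay at 67.4 to 288 CPM (median 149.7) in CT26 and 11.1 to 25.2 CPM (median 14.5) in 4T1. Gzmb did not overlap between the groups (log2 fold change 3.39 ± 0.39 SE, adjusted p = 3.85e-06). Ncr1, a receptor of NK cells, lay at 5.33 to 27.6 CPM (median 20.4) in CT26 and 0.807 to 2.58 CPM (median 1.62) in 4T1, and Cd3g, a chain of the T cell receptor complex, at 12.9 to 35.6 CPM (median 24.1) in CT26 and 2.65 to 8.28 CPM (median 5.17) in 4T1. Cd8a was higher in CT26 (log2 fold change 2.29 ± 0.51 SE, adjusted p = 0.00128), and Foxp3, the factor of regulatory T cells, lay at 3.32 to 5.65 CPM (median 4.85) in CT26 and 0 to 5.92 CPM (median 2.13) in 4T1 (adjusted p = 0.107). Foxp3 was called in 3 of 22 alternatives (adjusted p 0.00662 to 0.183), among them without 4T1 replicate 3 (adjusted p = 0.0177). The sums of CT26 replicates 2, 4 and 6 were 1146, 1562 and 1203 CPM and replicate 5 had the lowest of the group, 381 CPM, which was still above every 4T1 tumor. B cell genes were scarce, with 3 of 9 tested, and Cd79a was at 0 counts in all 12 tumors. B cell sums were 49.6 to 126 CPM (median 71.96) in CT26 and 15.99 to 26.7 CPM (median 22.9) in 4T1, with the highest CPM for Ighm in both groups (44.6 CPM on average in CT26 and 15.96 in 4T1). All 3 tested (Igkc, Ighm and Cd79b) were higher in CT26 (median 1.48), and the immunoglobulin counts are uncertain. Cd79b was called in 16 of 21 alternatives (adjusted p 0.00579 to 0.0587) and lost the call without CT26 replicate 3 or 5 or without 4T1 replicate 1, 3 or 5. Cd4, counted above, lost the call in 2 of 22 alternatives.

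Mast cell genes showed a wide gap as well. Of 6 tested, 4 were higher in CT26 (Cpa3, Cma1, Tpsb2 and Mcpt4), 0 were higher in 4T1 and 2 did not pass the test (median 1.53). Summed, they reached 514 to 1337 CPM (median 802) in CT26 and 68.5 to 134 CPM (median 92.02) in 4T1, with the highest CPM for Cma1 in both groups (762 CPM on average in CT26 and 75.7 in 4T1), and none was at 0. Cma1, a chymase of mast cell granules, lay at 436 to 1198 CPM (median 718) in CT26 and 55.2 to 104 CPM (median 74.6) in 4T1 (log2 fold change 3.34 ± 0.23 SE, adjusted p = 8.72e-10), and Cpa3, a carboxypeptidase of the same granules, had a log2 fold change of 3.1.

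Interferon-induced genes were higher in CT26 too, and the part of the lymphocytes in this was not tested. All 18 interferon-gamma response genes tested were higher in CT26, with a median of 2.12. Summed over all members, including 1 not tested, the level was 1598 to 6099 CPM (median 4188) in CT26 and 722 to 1322 CPM (median 889.8) in 4T1. Cxcl9, a chemokine for activated T cells, lay at 58.95 to 292 CPM (median 226) in CT26 and 11.5 to 29.8 CPM (median 17.7) in 4T1 (log2 fold change 3.46 ± 0.40 SE, adjusted p = 4.39e-06), and Cxcl10 lay at 58.8 to 247 CPM (median 102) in CT26 and 11.2 to 46.7 CPM (median 20.1) in 4T1. Cd274, which encodes the checkpoint ligand PD-L1, lay at 15.02 to 92.6 CPM (median 41.3) in CT26 and 8.88 to 11.3 CPM (median 9.89) in 4T1. Cd274 did not overlap between the groups (log2 fold change 2.23 ± 0.42 SE, adjusted p = 5.63e-04). The GTPases Gbp2 and Iigp1 had log2 fold changes of 2.47 and 2.81, while the near-identical Tgtp1 and Tgtp2 are uncertain. Of 24 type I interferon genes, 20 were higher in CT26, 0 were higher in 4T1 and 4 did not pass the test (median 1.01), with Irf7, the amplifying transcription factor, at 23.9 to 53.2 CPM (median 43.3) in CT26 and 9.05 to 20.1 CPM (median 13.96) in 4T1 and Zbp1, a nucleic acid sensor, at a log2 fold change of 2.42. Isg15 had too few counts to be tested. Gbp6, Ido1, Ifih1, Ifit1, Irf1, Mx1 and Stat2, counted above, lost the call in 1 of 22, 9 of 23, 5 of 23, 6 of 23, 4 of 23, 1 of 23 and 4 of 23 alternatives, in this order.

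**Figure D2:**
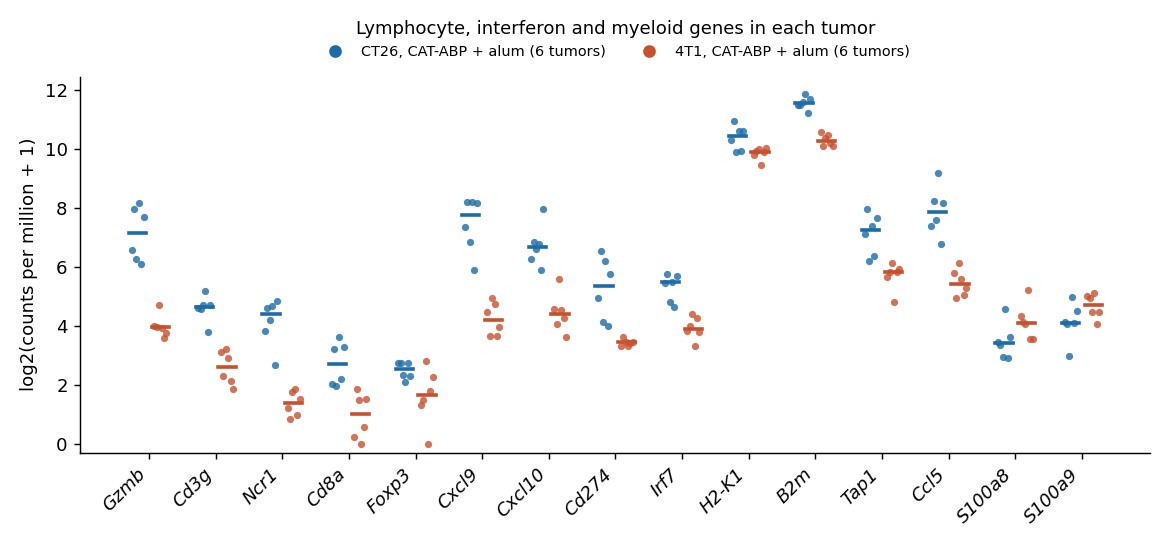
Levels of lymphocyte, interferon-induced and myeloid genes on a log2(CPM + 1) scale, 1 point per tumor, with a bar at the group median, in 6 CT26 (blue) and 6 4T1 (orange) tumors given CAT-ABP plus alum. The CT26 points of Gzmb, Ncr1, Cxcl9 and B2m lie above all 4T1 points, and the groups overlap for Foxp3, H2-K1, S100a8 and S100a9.

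Antigen presentation genes were higher in CT26 or did not pass the test, with 1 exception. Of 15 class I genes, 11 were higher in CT26, 1 was higher in 4T1 (H2-Q6) and 3 did not pass the test (median 0.66). B2m, the shared light chain, lay at 2371 to 3685 CPM (median 2980.1) in CT26 and 1086 to 1509 CPM (median 1243) in 4T1. B2m did not overlap between the groups (log2 fold change 1.26 ± 0.16 SE, adjusted p = 3.40e-06). Tap1, a subunit of the peptide transporter, had a log2 fold change of 1.5, and the heavy chains H2-K1 and H2-D1, uncertain because H2 genes share sequence, had 0.58 and 0.66 with overlapping groups. H2-K1 was called in 22 of 23 alternatives (adjusted p 0.00287 to 0.0605), not with technical replicate 1 alone. H2-Q6 was the member higher in 4T1 (log2 fold change -2.82) and is uncertain for the same reason. Of 7 class II genes, 2 were higher in CT26 (H2-DMa and H2-Eb1), 0 were higher in 4T1 and 5 did not pass the test (median 0.56), and Cd74, the invariant chain, lay at 2.91 to 9.91 CPM (median 6.81) in CT26 and 2.77 to 11.6 CPM (median 4.77) in 4T1 (adjusted p = 0.425). Among 10 checkpoint genes tested, 4 were higher in CT26 (Cd80, Pdcd1lg2, Cd86 and Lgals9), 2 were higher in 4T1 (Nt5e and Cd276) and 4 did not pass the test (median 0.43, which turned to -0.013 with technical replicate 2 alone). Nt5e, the adenosine-making enzyme CD73, lay at 5.83 to 10.9 CPM (median 9.66) in CT26 and 156 to 213 CPM (median 186) in 4T1 (log2 fold change -4.38 ± 0.18 SE, adjusted p = 1.06e-12), and Cd276 was also higher in 4T1 (log2 fold change -2.32). Cd80 and Pdcd1lg2 were higher in CT26 (log2 fold changes 2.27 and 2.79). H2-DMa was called in 20 of 23 alternatives (adjusted p 0.00529 to 0.1095) and lost the call with technical replicate 2 alone or without CT26 replicate 4 or 6. H2-Eb1 was called in 12 of 23 alternatives (adjusted p 0.00465 to 0.147) and lost the call with limma voom, without the filter, with technical replicate 2 alone, with the replicate number as a block, without CT26 replicate 2, 4 or 6 or without 4T1 replicate 1, 2, 4 or 5. Cd86 was called in 18 of 23 alternatives (adjusted p 0.00307 to 0.2005) and lost the call with limma voom, with technical replicate 2 alone, with the replicate number as a block or without CT26 replicate 2 or 4. Lgals9 was called in 14 of 23 alternatives (adjusted p 0.00777 to 0.237) and lost the call without the filter, with technical replicate 1 alone, with technical replicate 2 alone, without libraries of low depth, without CT26 replicate 1, 3 or 6 or without 4T1 replicate 4 or 6. Erap1, H2-Q4, Nlrc5 and Psmb10, counted above, lost the call in 1 of 23, 5 of 23, 1 of 23 and 3 of 23 alternatives, in this order.

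The chemokines of a list of the CC family with Cxcl12, Cxcl14 and Cx3cl1 were mostly higher in CT26. Of 16 tested, 11 were higher in CT26, 3 were higher in 4T1 (Cx3cl1, Ccl17 and Cxcl14) and 2 did not pass the test (median 1.17). Ccl2, which draws monocytes, lay at 1078 to 2069 CPM (median 1454) in CT26 and 204 to 382 CPM (median 311) in 4T1 (log2 fold change 2.33 ± 0.21 SE, adjusted p = 3.91e-08), and Ccl5, which draws T cells and monocytes, at 108 to 581 CPM (median 238) in CT26 and 29.7 to 68.2 CPM (median 42.03) in 4T1. Ccl5 did not overlap between the groups (log2 fold change 2.61 ± 0.35 SE, adjusted p = 1.51e-05). Cx3cl1 and Ccl17 were higher in 4T1 (log2 fold changes -3.93 and -1.56). Of 21 macrophage and monocyte markers tested among 22, 12 were higher in CT26, 1 was higher in 4T1 (Apoe) and 8 did not pass the test (median 0.57). Their summed level was 8589 to 11991 CPM (median 9619) in CT26 and 5724 to 8000.2 CPM (median 5999.8) in 4T1, with the highest CPM for Spp1 in both groups (5248 CPM on average in CT26 and 3543 in 4T1), and no marker was at 0. Adgre1, the macrophage antigen F4/80, lay at 34.2 to 65.2 CPM (median 47.5) in CT26 and 18.9 to 24.1 CPM (median 21.2) in 4T1 (log2 fold change 1.19 ± 0.15 SE, adjusted p = 4.03e-06). Dendritic cell genes gave 9 tested of 11, of which 3 were higher in CT26 (Siglech, Ccr7 and Xcr1), 1 was higher in 4T1 (Itgax) and 5 did not pass the test (median 0.22). Summed over the list, dendritic genes lay at 66.2 to 126 CPM (median 91.2) in CT26 and 66.3 to 91.3 CPM (median 72.9) in 4T1, with the highest CPM for Irf8 in both groups (41.7 CPM on average in CT26 and 29.1 in 4T1), and none was at 0. Apoe was called in 19 of 23 alternatives (adjusted p 0.0113 to 0.0701) and lost the call with technical replicate 1 alone, without CT26 replicate 5 or 6 or without 4T1 replicate 1. Xcr1 was called in 19 of 20 alternatives (adjusted p 0.00772 to 0.0652) and lost the call without CT26 replicate 6. C1qc, counted above, lost the call in 11 of 23 alternatives.

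Neutrophil genes lay on both sides. Of 16 markers 8 were tested, of which 3 were higher in CT26 (Clec4d, Csf3r and Retnlg), 2 were higher in 4T1 (Il1r2 and Trem1) and 3 did not pass the test (median -0.36, which turned to 0.647 without the filter). Their summed level was 102 to 208 CPM (median 133) in CT26 and 100.2 to 182 CPM (median 156) in 4T1, with overlapping groups. The gene of highest CPM was Cxcr2 in both groups (48.7 CPM on average in CT26 and 57.2 in 4T1), Ly6g had 11 and 6 counts, and Camp and Elane, genes of immature neutrophils, were at 0 in 4T1. S100a8 lay at 6.46 to 22.6 CPM (median 9.56) in CT26 and 10.8 to 36.2 CPM (median 16.02) in 4T1 and S100a9 at 6.81 to 30.8 CPM (median 16.2) in CT26 and 15.8 to 33.6 CPM (median 25.6) in 4T1, and neither passed the test (adjusted p = 0.1297 and 0.154). Without CT26 replicate 4 both were called (adjusted p = 0.0115 and 0.0333), as with the replicate number as a block, which makes 2 of 23 alternatives, over which adjusted p ran from 0.00524 to 0.247 for S100a8 and from 0.0322 to 0.323 for S100a9. Growth factors and chemoattractants of this lineage were split: of 11 tested, 2 were higher in CT26 (Cxcl3 and Cxcl5), 3 were higher in 4T1 (Lif, Il1a and Cxcl1) and 6 did not pass the test (median -0.03, which changed sign in 12 of 23 alternatives, furthest to 0.327 with 1 model over all 7 groups). Cxcl1 lay at 9.91 to 26.1 CPM (median 10.98) in CT26 and 17.7 to 33.6 CPM (median 21.9) in 4T1 (log2 fold change -0.73 ± 0.23 SE, adjusted p = 0.0169; called in 22 of 23 alternatives (adjusted p 3.12e-04 to 0.109), not with technical replicate 1 alone), and Csf1 at 59.9 to 94.4 CPM (median 77.4) in CT26 and 48.1 to 72.6 CPM (median 65.8) in 4T1 (adjusted p = 0.1198). Csf3, which encodes the neutrophil growth factor G-CSF, had 2 counts in CT26 and 26 in 4T1, a ratio of 15.96 with a 95% counting interval of 3.996 to 139, and was not tested. Il6 lay at 0.485 to 4.69 CPM (median 3.07) in CT26 and 0.948 to 5.33 CPM (median 2.63) in 4T1 (adjusted p = 0.967). Csf3r was called in 20 of 23 alternatives (adjusted p 0.00478 to 0.0565) and lost the call with technical replicate 1 alone, with technical replicate 2 alone or without CT26 replicate 2. Retnlg was called in 19 of 23 alternatives (adjusted p 2.34e-04 to 0.0893) and lost the call with technical replicate 1 alone, with 1 model over all 7 groups or without CT26 replicate 4 or 6. Cxcl3 was called in 14 of 23 alternatives (adjusted p 0.00554 to 0.196) and lost the call with technical replicate 1 alone, with 1 model over all 7 groups, without CT26 replicate 1, 2, 4 or 5 or without 4T1 replicate 1, 3 or 6. Cxcl5 was called in 13 of 23 alternatives (adjusted p 0.00511 to 0.388) and lost the call with technical replicate 2 alone, with 1 model over all 7 groups, with the replicate number as a block, without CT26 replicate 1, 2, 4 or 6 or without 4T1 replicate 1, 5 or 6.

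Markers of other host tissues were also examined. Among the endothelial markers 11 of 15 were tested, of which 0 were higher in CT26, 3 were higher in 4T1 (Flt1, Cdh5 and Emcn) and 8 did not pass the test (median -0.22). Endothelial sums were 146 to 179.7 CPM (median 158) in CT26 and 197 to 241 CPM (median 221) in 4T1, with the highest CPM for Pecam1 in both groups (56.4 CPM on average in CT26 and 61.2 in 4T1), with no overlap and no marker at 0. Pecam1 lay at 50 to 69.7 CPM (median 54.8) in CT26 and 47.2 to 86.6 CPM (median 56.3) in 4T1 (adjusted p = 0.664), and Flt1, a VEGF receptor, was higher in 4T1 (log2 fold change -1.31). For skeletal muscle 14 of 17 were tested, of which 1 was higher in CT26 (Myl1), 2 were higher in 4T1 (Tnnt3 and Neb) and 11 did not pass the test (median 0.10, which changed sign in 7 of 23 alternatives, furthest to -0.298 without the filter), and the summed level was 277 to 749 CPM (median 447) in CT26 and 357 to 557 CPM (median 460.0) in 4T1, with the highest CPM for Acta1 in both groups (159.7 CPM on average in CT26 and 143 in 4T1), with no marker at 0. For adipocytes 4 of 11 were tested, of which 1 was higher in CT26 (Fabp4), 1 was higher in 4T1 (Cfd) and 2 did not pass the test (median -0.37), and the summed level was 92.5 to 127 CPM (median 109.9) in CT26 and 69.8 to 116 CPM (median 102) in 4T1, with the highest CPM for Fabp4 in both groups (76.5 CPM on average in CT26 and 43.2 in 4T1), with no marker at 0. Epidermal genes were scarce: 2 of 11 were tested, of which 1 was higher in CT26 (Krt10), 0 were higher in 4T1 and 1 did not pass the test (median 0.63, which turned to -0.3298 without the filter). Krt1, Krt2, Lor, Flg and Calm4 were at 0 in all 12 tumors, and the summed level was 15.5 to 32.1 CPM (median 26.3) in CT26 and 9.67 to 20.6 CPM (median 14.2) in 4T1, with the highest CPM for Krt10 in both groups (22.6 CPM on average in CT26 and 12.7 in 4T1). For erythroid cells 4 of 8 were tested. None passed the edgeR test and none had an unadjusted p under 0.05. DESeq2 called 0 of the 4, and limma voom called Hba-a2 (log2 fold change 0.76, adjusted p = 0.0189), named here after its value was seen. The summed level was 101 to 172 CPM (median 144) in CT26 and 45.3 to 256 CPM (median 125) in 4T1, with the highest CPM for Hbb-bs in both groups (71.6 CPM on average in CT26 and 69.2 in 4T1), whose globin copies are uncertain. The part that muscle, fat, skin or blood in a tumor sample had in other values was not tested. Emcn was called in only 4 of 23 alternatives (adjusted p 0.0323 to 0.294), which were those with DESeq2, with limma voom, without CT26 replicate 5 and without 4T1 replicate 6. Myl1 was called in 21 of 23 alternatives (adjusted p 0.00114 to 0.194) and lost the call with technical replicate 2 alone or with 1 model over all 7 groups. Neb was called in 18 of 23 alternatives (adjusted p 6.01e-04 to 0.0763) and lost the call without the filter, with 1 model over all 7 groups, without CT26 replicate 2 or without 4T1 replicate 2 or 5. Cfd was called in 22 of 23 alternatives (adjusted p 0.00172 to 0.0611) and lost the call without the filter. Krt10 was called in 22 of 23 alternatives (adjusted p 8.99e-04 to 0.0794) and lost the call with technical replicate 2 alone.

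The tumors given alum alone share no animal with those above and were compared in the same way. Of 12817 genes tested in 5 CT26 and 5 4T1 tumors, 5442 (42.5%) were called, 2723 (21.2%) higher in CT26 and 2719 (21.2%) higher in 4T1. Of the 4T1 alum tumors 3 were sequenced in pools 1 and 4 and the other alum tumors in pools 2 and 3, and with pool as a block 4036 genes were called. Of 12578 genes tested in both contrasts, 10838 had the same sign. Genes called in both numbered 4345, which is 75.4% of the calls with CAT-ABP plus alum and 81.7% of the calls with alum among those genes, and all 4345 had the same sign. Of 2437 called with CAT-ABP plus alum at an absolute log2 fold change of at least 1, 2247 were called with alum in the same direction. Log2 fold changes correlated across genes with Pearson r = 0.952, where genes are not independent replicates. Epcam had a log2 fold change of -7.37 with alum alone against -7.53 with CAT-ABP plus alum, Cdh1 -4.8 against -4.8, Cdh2 4.23 against 4.37 and Cxcl9 4.41 against 3.46. For T and NK cells the median was 2.44 with alum alone, and for interferon-gamma genes 3.01. Other list medians had the opposite sign with alum alone. These were 0.60 for clock genes (-0.25 with CAT-ABP plus alum), 0.47 for adipocytes (-0.37) and 0.009 for hypoxia genes (-0.15). The list of neutrophil growth factors and chemoattractants gave 0.30 (-0.03). The genes tested differed between the contrasts for some lists. The difference between the contrasts was then tested as an interaction of line and treatment over 22 tumors. Neither this test nor the log2 fold changes with alum alone included the pool as a block. None of 14160 genes (0%) passed at an adjusted p of 0.05 in edgeR, where the smallest adjusted p was 0.99999 and 503 genes had an unadjusted p under 0.05. DESeq2 and limma voom also called 0, with 601 and 1233 genes under that unadjusted p. A p that misses the threshold does not show that the models differed equally under the 2 treatments.

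**Figure D3:**
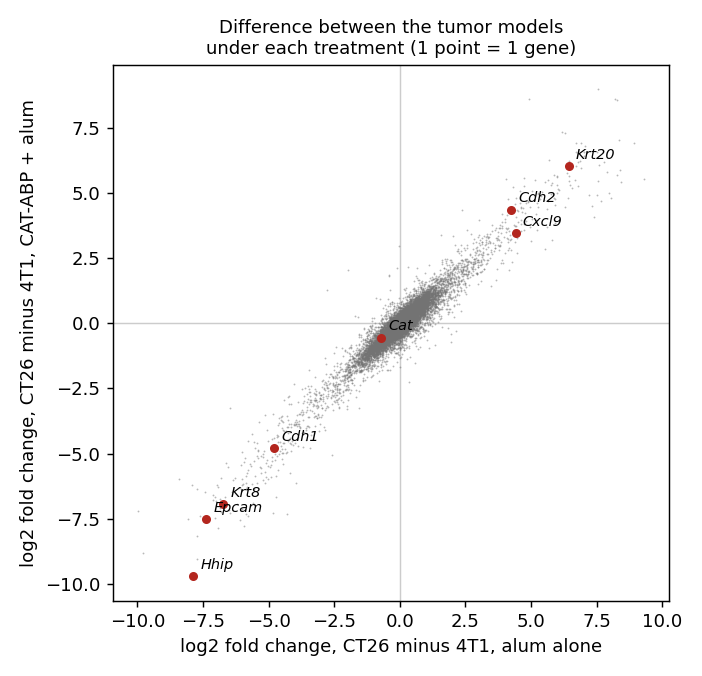
Log2 fold change of each gene, CT26 minus 4T1, in tumors given alum alone (x axis) and in tumors given CAT-ABP plus alum (y axis), 1 point per gene tested in both (12578 genes), with named genes in red. The points follow the diagonal (Pearson r = 0.952 across genes).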

How the data were processed

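Polyadenylated RNA of 38 tumors was counted by a 3′ method (a modified SCRB-seq) as 2 libraries per tumor. The authors deposited estimated counts per gene, made with a Smart-seq2 pipeline (55536 genes, all found in GENCODE mouse release 21), 40.8% of the non-zero values of the compared libraries not being whole. In their own analysis they left out some technical replicates of low depth, which they do not name; all libraries were used here. Counts were summed per tumor, rounded and fitted in edgeR 4.0.16 (R 4.3.3; filterByExpr with a minimum count of 10, TMM, robust quasi-likelihood test, Benjamini-Hochberg over all genes tested, called at 0.05). Alternatives used DESeq2 1.42.0 and limma 3.58.1 voom. CPM uses TMM library sizes; fits were tested on simulated data. The gene of highest CPM in a marker list is given as a description of tag counts; levels of different genes were not compared by a test. Single values got two-sided exact permutation tests (smallest p 0.002165). Named genes were those chosen by role, the 10 largest non-overlapping calls in each direction with a mean of at least 20 CPM, and up to 2 further called members per list and direction; members of counts of 5 or fewer outside this rule were named after their values were seen. The members and lists were chosen with earlier results of these data known. The names Ero1l and Ahsp matched no gene. Some genes are not reported here.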

Additional observations from a re-analysis of the deposited data

Results flagged for a closer look

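In 256 groups of 6 tumors, 18 values stood far from the other 5 of their group by Dixon's criterion, which chance meets in about 1 in 20 groups. Of these 18, 9 were in 4T1 replicate 4, the shallow tumor. It had a total of 837403 counts, 6.04% of counts in mitochondrial genes (others 3.799 to 4.39%) and a correlation of 0.796 between its libraries (others 0.910 to 0.960). Its epithelial regulators summed to 119 CPM (others 147 to 164). Zeb2 stood at 60.7 CPM there (others 31.4 to 38.8), Tap1 at 27.1 (others 48.8 to 68.2), Esr1 at 1.29 (others 4.73 to 7.39), and Cdh2 and Krt20 at 0 CPM (others 1.34 to 2.17 and 0.758 to 1.51). Without this tumor 6396 genes were called.

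In CT26 replicate 4 the hypoxia list summed to 1968 CPM (others 1322 to 1505), Cxcl1 stood at 26.1 (others 9.91 to 13.2) and Slurp1 at 155 (others 76.6 to 95.1). CT26 replicate 1 had 1.17 CPM of Cdh1 (others 3.69 to 6.26). CT26 replicate 5 had 2.91 CPM of Cd74 (others 6.54 to 9.91). CT26 replicate 6 had 0.261 CPM of Hhip, a single count, where the others had 0. In 4T1 replicate 6 Dusp6 stood at 139 CPM (others 163 to 179) and Acta2 at 73.5 (others 145 to 186). In 4T1 replicate 3 Gzmb stood at 25.2 CPM (others 11.1 to 15.1).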

How the results depend on the processing

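The count of 5912 genes lay between 4596 and 7025 in the alternatives other than technical replicate 2 alone, which gave 3569 of 10196 genes tested, and the threshold on size, which gave 2574. With each tumor left out it ran from 5393 to 6396. With alum alone, 5442 genes ran from 4036 with pool as a block to 6317 with voom. The difference between the contrasts stayed at 0 calls in edgeR, DESeq2 and voom, with other scaling, without the filter and with each tumor left out. It was not tested with pool as a block. The difference in mitochondrial share, -0.59 percentage points, passed the test with technical replicate 2 alone (-0.61, p = 0.0411, exact permutation test) and without CT26 replicate 3 (p = 0.0433, exact permutation test), and ran from -0.73 to -0.26 with each tumor left out; without 4T1 replicate 4 it was -0.26. The difference in log2 total fell from 0.52 to 0.060 without 4T1 replicate 4. The cause was not tested.

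Replicate numbers did not pair the tumors. Same-numbered tumors correlated from -0.074 to 0.39 in their deviations from group means, 2 of 6 pairs over 0.1, and 3 of 12 tumors correlated best with their own number. With the number as a replicate block 5899 genes were called, 5612 of them among the 5912, and 5395 with alum alone.

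Of 173 called genes chosen by the naming rules, 149 were called with the same sign in each of the 23 alternatives that gave them a value, 24 lost the call in at least 1, and none changed sign. Over all 334 called genes that are named or in a list, 68 lost the call in at least 1. Of those chosen by the rules and not called, 7 were called in at least 1 alternative. Sign changes were confined to 6 genes that passed in none of them: Hmox1 (voom -0.079, technical replicate 2 -0.15, without libraries of low depth -0.0032, left out -0.15 to 0.31), Il6 (DESeq2 0.0015, upper quartile 0.017, left out -0.20 to 0.32), Sod2 (technical replicate 2 -0.10, left out -0.045 to 0.12), Cxcr2 (technical replicate 1 0.032), Pecam1 (technical replicate 2 0.094, left out -0.15 to 0.0070) and Hbb-bs (left out -0.039 to 0.32). Of 874 list medians, 29 changed sign, in 9 lists. Genes of a few counts, such as Csf3, Isg15 and Cd3e, did not pass the filter and so have no test result. Why their counts were low was not tested.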
